A study of Homo sapiens with 30 samples.

Results

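The SIN3 complex is a corepressor that removes acetyl groups from histone tails. SIN3A and SIN3B are alternative scaffolds that do not bind DNA themselves, HDAC1 and HDAC2 are the deacetylases, and SAP30, SAP30L, SUDS3, SAP130, ARID4B and ING2 are further subunits, of which ING2 holds a PHD finger that reads H3K4me3. The genes that encode these 10 subunits, of 20098 protein-coding genes on the autosomes and X, were taken as a fixed list by name. For each gene, the ChIP-Seq summits of SAP30, SIN3A, SIN3B, Pol II, H3K4me3 and H3K9Ac were read at its start sites and along its body, to see whether the complex sat on its own subunit genes and whether these genes stood differently in cells without SAP30.

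The cells were MDA-MB-231, a human triple-negative breast cancer line, either parental or SAP30-KO1, a CRISPR/Cas9 SAP30 knockout pool that mixes several single-cell clones. The 18 peak lists fell into 9 groups of 2 libraries. The lists of the 3 complex proteins came from parental cells, whereas those of Pol II and of the histone marks H3K4me3 and H3K9Ac came from both lines. All cells grew in DMEM with serum and received no treatment. Peak lists cannot show the knockout itself, and the 12 input and H3 samples were not analysed here. Each list was called on its own library and held between 10861 and 54622 summits. Sequencing depth is unknown, so a summit that is missing from a list was not detectable by its threshold and is not shown to be absent. The parental lists held Pol II promoter summits in both libraries at the mesenchymal and basal markers VIM, AXL, CD44, ZEB1, FOSL1 and CAV1, and at 2 of 8 luminal markers, ERBB3 and XBP1. Luminal H3K4me3 was present at 7 of 8.

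Each summit was placed by its rank within its own list, where 0% is the best-scored summit and 100% the last. A promoter value is the best rank among summits within 1000 bp of any annotated start site of the gene. A rank is a place among the other peaks of the same library and not an amount of signal. The labels do not say that the 2 libraries of a group came from separate cultures, so the spread between them may be technical.

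**Figure D1:**
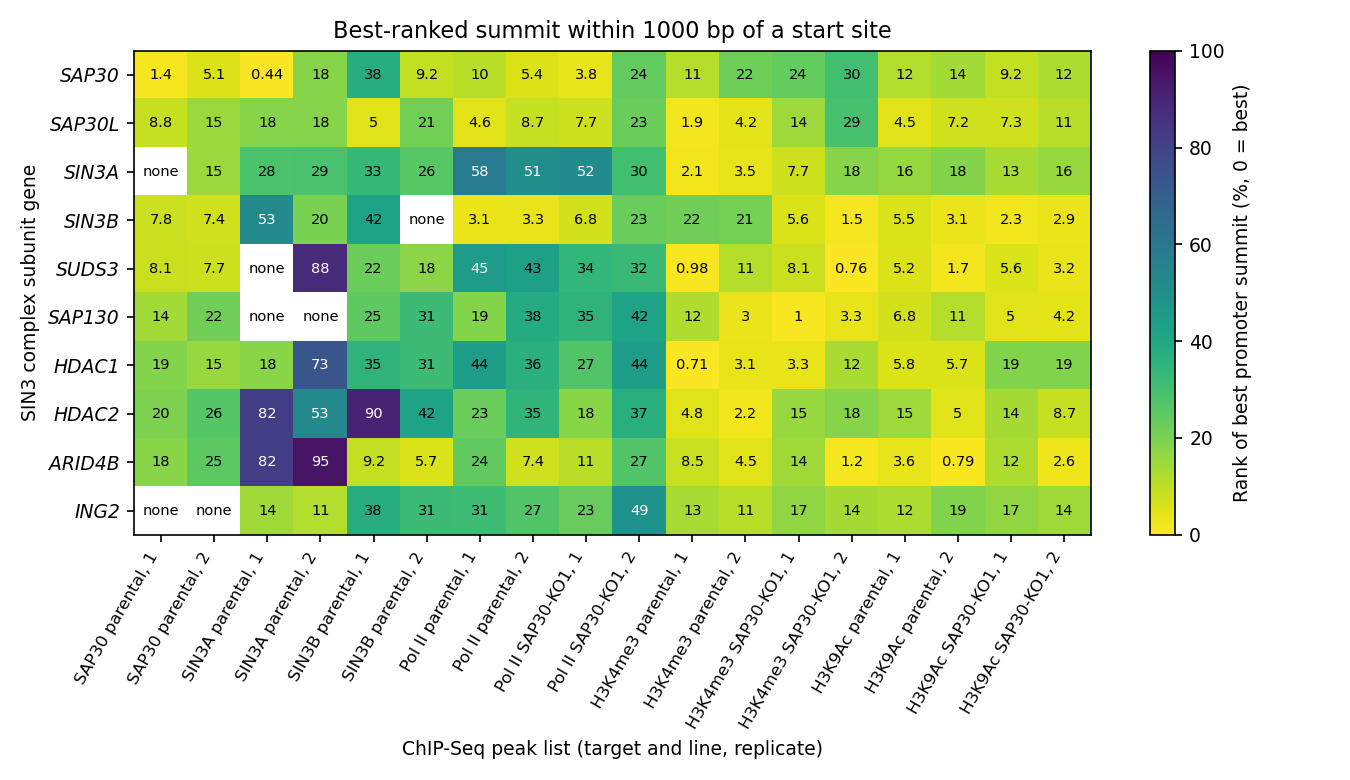
Rank in percent (colour and printed value, 0 = best) of the best summit within 1000 bp of a start site, for the 10 subunit genes (rows) in each of the 18 peak lists (columns, target and line with the replicate number). Pol II, H3K4me3 and H3K9Ac filled every cell, and the empty cells lie in the SAP30, SIN3A and SIN3B lists.

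All 10 subunit genes carried promoter summits of Pol II, H3K4me3 and H3K9Ac in all 4 libraries of each mark, against 53.3%, 62.3% and 59.9% of all protein-coding genes. SAP30 lay at the promoters of 8 of the 10 genes in both of its libraries, against 61.2% of all genes. The exceptions were SIN3A, with a promoter summit in 1 of 2 libraries, and ING2, with none. SIN3A protein lay at 8 promoters against 31.5% of all genes, and it was missing from SAP130 in both libraries and from SUDS3 in 1. The SIN3A libraries agreed least in rank (Spearman rho 0.453 across 6323 genes), and 4 of the 10 members remained in the better-ranked 50% of both lists. The share of all genes that remained was not counted. SIN3B protein lay at 9 promoters against 51.7% of all genes, and the exception was the SIN3B gene itself, where only replicate 1 held a summit. The 3 proteins met in both libraries each at SAP30, SAP30L, HDAC1, HDAC2 and ARID4B, which is 5 of 10 against 30.2% of all genes. Most genes with Pol II in all 4 libraries carried these proteins: 98% of these 10706 genes had SAP30, 56.7% had SIN3A, 90.7% had SIN3B and 54.7% had all 3. Read against active genes, the members' shares for SAP30, SIN3B and all 3 proteins were no higher than the background.

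The SAP30 gene, on the forward strand of chromosome 4, held the best-ranked SAP30 promoter summit among the members in both libraries. SAP30 protein peaked 103 and 90 bp after the start site, in the 5′ UTR part of exon 1, at ranks of 1.36% and 5.12%, and 9.33% of the 12298 genes with SAP30 in both libraries had a better mean rank. SIN3A protein peaked there at 0.441% and 18.3%, so its libraries disagreed on how high the gene stood, and SIN3B protein at 37.5% and 9.22%. Weaker SAP30 summits stood in both libraries 1459 and 1391 bp upstream, with ranks of 46.6% and 51.7%, and 2067 and 2149 bp into the gene in intron 1, with ranks of 73.3% and 60.7%. The divergent noncoding gene SAP30-DT starts 233 bp upstream of SAP30. The 30 bases under the SAP30 summits (chr4:174292188-174292217, GRCh37, forward strand) and the 200 bases before the start site (chr4:174291905-174292104, forward strand) are shown because this is the gene of the deleted subunit. Capitals mark the letters GGGCGG, which SP and KLF factors are known to bind.
SAP30 summit: accagcaggcccgggacagttggtgtttgg
SAP30 upstream: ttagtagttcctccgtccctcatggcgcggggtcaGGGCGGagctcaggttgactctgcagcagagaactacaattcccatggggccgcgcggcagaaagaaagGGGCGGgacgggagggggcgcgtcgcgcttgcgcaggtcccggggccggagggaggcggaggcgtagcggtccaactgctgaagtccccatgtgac

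SAP30L encodes the close relative of SAP30. SAP30 protein peaked at its promoter 85 and 70 bp after the start site, at ranks of 8.82% and 15.1%. SIN3A protein stood at 18.2% and 18.3%, the closest pair of SIN3A ranks among the members. SIN3B protein peaked upstream of the start site, by 337 and 297 bp, at 4.96% and 21.3%.

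The scaffold genes differed in where SAP30 sat. At SIN3B, SAP30 peaked 103 and 62 bp after the start site, in coding exon 1, at 7.85% and 7.39%. SIN3A protein was at 52.9% and 20.1% there. At SIN3A, which lies on the reverse strand of chromosome 15 and has 8 annotated start sites, the best SAP30 summits stood 3026 and 2930 bp upstream of the principal start site, at 5.48% and 6.89%. They fell outside the 1000 bp window of every start site, the first of which lies 4152 bp upstream, and this left SIN3A without a SAP30 promoter call in replicate 1. SIN3A protein stood within 106 and 7 bp of the midpoint of these summits, at 15.7% and 48.2%. Its best replicate 2 rank within 1000 bp, 31.7%, belonged to another summit, 2291 bp upstream of the principal start site. SIN3B protein stood within 184 and 224 bp of the midpoint, at 14.5% and 10.8%. All 3 proteins therefore shared a site at the SIN3A locus that a promoter count misses. The nearest annotated start site, 721 bp away, is that of the noncoding gene ENSG00000276744. Within 201 bases of this point (chr15:75746909-75747109, GRCh37, reverse strand) GGGCGG, in capitals, occurred 3 times, the first 2 side by side. The 100 bases before the SIN3B start site (chr19:16940109-16940208, forward strand) held the NRF1 letters GCGCATGCG together with GGGCGG on both strands, again in capitals.
SIN3A upstream site: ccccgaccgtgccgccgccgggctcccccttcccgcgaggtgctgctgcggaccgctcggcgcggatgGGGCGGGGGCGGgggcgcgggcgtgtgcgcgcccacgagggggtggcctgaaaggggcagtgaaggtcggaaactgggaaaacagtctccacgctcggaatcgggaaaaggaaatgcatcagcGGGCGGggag
SIN3B upstream: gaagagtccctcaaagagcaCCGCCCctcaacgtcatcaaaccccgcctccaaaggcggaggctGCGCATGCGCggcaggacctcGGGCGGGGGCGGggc

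**Figure D2:**
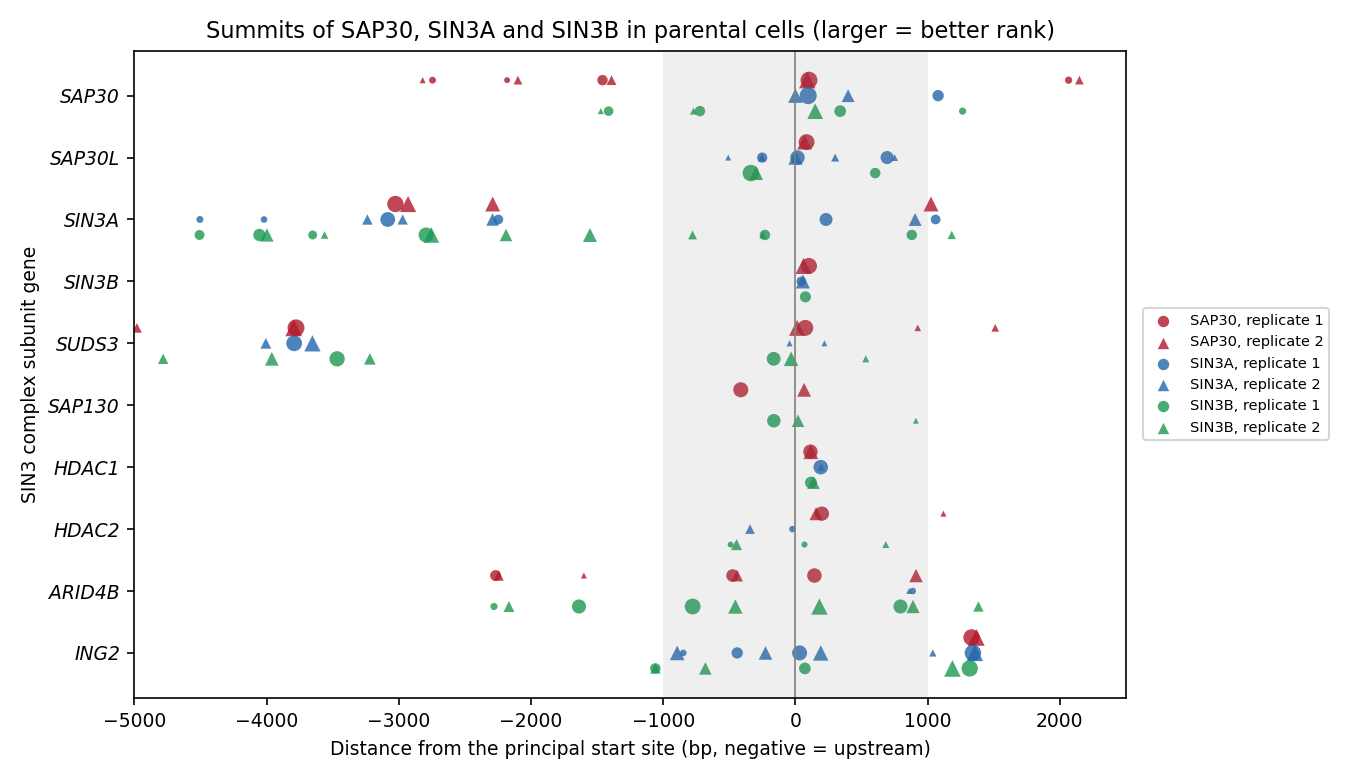
Positions of SAP30, SIN3A and SIN3B summits in parental cells relative to the principal start site of each gene (x axis, bp, negative upstream), one row per gene, circles for replicate 1 and triangles for replicate 2, larger where the rank is better; the grey band is 1000 bp to either side. The best SAP30 summits of SIN3A (3026 and 2930 bp upstream) and ING2 (1333 and 1369 bp downstream) lie outside the band.

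ING2 was the other gene without a SAP30 promoter call, and it too had a strong site just outside the window. SAP30 peaked in intron 1, 1333 and 1369 bp after the start site, at 4.47% and 2.81%. SIN3A protein stood within 8 and 7 bp of that point, at 4.42% and 5.25%, and SIN3B protein within 32 and 163 bp, at 5.53% and 3.56%. These 6 ranks lay between 2.81% and 5.53%, so all libraries placed the intronic site near the top. Of the complex proteins, SIN3A and SIN3B protein alone had summits within 1000 bp of the ING2 start site. SIN3A protein peaked 32 and 192 bp after it, at 14.4% and 11.4%. SIN3B protein peaked 72 bp after it in replicate 1, at 37.5%. In replicate 2 its summit lay 681 bp upstream, at 31.3%. That summit is nearer to the start site of the divergent noncoding gene ING2-DT, 858 bp upstream of ING2. The best parental Pol II promoter summits, 624 and 634 bp upstream, are nearer to ING2-DT too. Pol II lay within 1000 bp of the intronic site in all 4 libraries, at 47.9% and 51.1% in parental cells and 35.1% and 39.9% in SAP30-KO1 cells. The 201 bases around the site (chr4:184427462-184427662, GRCh37, forward strand) held the ETS letters CCGGAAG on the opposite strand, shown in capitals as CTTCCGG.
ING2 intron 1 site: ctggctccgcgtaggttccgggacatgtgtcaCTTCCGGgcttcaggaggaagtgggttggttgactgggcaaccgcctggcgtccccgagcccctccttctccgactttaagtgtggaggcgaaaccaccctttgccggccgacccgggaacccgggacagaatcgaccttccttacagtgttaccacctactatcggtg

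Of the deacetylase genes, HDAC2 stood further down than HDAC1 by mean rank of SAP30, SIN3A and SIN3B protein. At HDAC1 SAP30 peaked 114 and 117 bp after the start site, at 18.7% and 15.4%, close to the median of bound genes, since 49.7% of them had a better mean rank. SIN3A protein was at 17.9% and 73.4%. At HDAC2 SAP30 was at 19.7% and 26.4%, SIN3A protein at 81.8% and 52.8% and SIN3B protein at 90.1% and 41.8%, so 89% of SIN3A-bound and 94.3% of SIN3B-bound genes ranked better. HDAC1 was the 1 member of 9 with SAP30 summit pairs that held AAGATGGCG, the YY1 letters, within 250 bp of the summits, against 4.13% of genes with SAP30 in both libraries. The ATG in this match is the annotated start of the HDAC1 coding sequence. The 30 bases around it (chr1:32757758-32757787, GRCh37, forward strand) have the match in capitals.
HDAC1 coding start: ggaggcgagcAAGATGGCGcagacgcaggg

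SUDS3 supports deacetylase activity within the complex, and SAP130 and ARID4B are further large subunits. SAP30 stood at the SUDS3 start site at 8.11% and 7.71%, while SIN3A protein appeared there in replicate 2 alone, at 88.2%. SAP30 was ranked higher still 3778 and 3795 bp upstream of SUDS3, at 1.79% and 2.23%, but that point is 138 bp from the start site of the divergent gene TAOK3. At SAP130 the SAP30 libraries placed their summits 413 bp upstream and 66 bp downstream of the start site, at 14% and 21.6%, SIN3B protein was at 24.7% and 31.3%, and no SIN3A summit was listed. ARID4B shares its promoter with GGPS1, which starts 137 bp from the nearest ARID4B start site, and with the protein-coding gene ENSG00000285053 at 351 bp, so its values cannot be assigned to 1 gene. SIN3B protein was high there, at 9.16% and 5.65%, and SIN3A protein low, at 81.8% and 94.8%, with 99% of SIN3A-bound genes ranked better.

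The 8 searched motifs set the members apart in no single letter string. Windows of 501 bp around the SAP30 summits of the 9 genes whose libraries agreed within 200 bp (SAP130 was left out) were searched on both strands. Those of SIN3A and ING2 lay beyond 1000 bp from a start site, whereas bound-gene windows were centred on the best replicate 1 promoter summit. The ARID4B window lay at its upstream pair (30.5% and 36.4%), since its best-ranked summits were further apart. GGGCGG was in 7 of 9, against 85.7% of the SAP30 windows of all bound genes and 69.7% of windows around all start sites. CCAAT, the NF-Y letters, was in SAP30L, SIN3B and HDAC1 (3 of 9 against 35.2%), CCGGAAG in SUDS3 and ING2 (2 of 9 against 22.3%), and CACGTG, the MAX and MYC E-box, in SIN3B alone (1 of 9 against 15.1%). GCGCATGCG was also in SIN3B alone, against 3% of the bound windows. The E2F letters TTTCCCGC and the CREB and ATF letters TGACGTCA were in none of the 9, against 3.74% and 2.77%. The median GC content of the 9 windows was 71.1%, and that of all bound windows 68.3%. Such matches describe letters and are not evidence of a factor.

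Beyond the promoters, SAP30 returned in both libraries at a small number of sites within the gene spans. In intron 16 of SIN3B, 47737 and 47908 bp from the start site, SAP30 had ranks of 12.2% and 18.1%. Within 1000 bp of these summits the best ranks were 89% and 25.4% for SIN3A protein and 19.3% and 33.1% for SIN3B protein, whose replicate 2 summit of that rank lay in coding exon 17, while its summit in intron 16 ranked 51.3%. H3K9Ac was present within 1000 bp in all 4 libraries, at 29.6% and 19.3% in parental and 36.2% and 36.7% in SAP30-KO1 cells, and no Pol II or H3K4me3 summit was listed in either line. The nearest start site, of F2RL3, is 11778 bp away, so this site of all 3 proteins lies far from a promoter. In intron 3 of HDAC1, 29837 and 29926 bp from the start site, SAP30 (36.8% and 50%) and SIN3B protein (26.8% and 67%) stood together without SIN3A protein. H3K9Ac was again present there in all 4 libraries. A site at the far end of the ARID4B span, with SAP30 at 4.9% and 9.95%, lies 9 bp from the start site of RBM34 and is a promoter of that gene.

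Promoter ranks of the marks in parental and SAP30-KO1 cells were compared with limma on normal scores of the ranks, in which a positive change means a better rank in SAP30-KO1. At a Benjamini-Hochberg adjusted p under 0.05, limma called 0 of the 10 members for Pol II, H3K4me3 and H3K9Ac, against 0%, 0% and 0.0083% of the 10706, 12531 and 12048 genes tested. At an unadjusted limma p under 0.05, 1, 3 and 1 of the members passed, against 8.68%, 8.07% and 8.53% of genes. With 2 libraries per line, an adjusted p above the threshold does not show that ranks were the same. In simulated data, score changes of 1 were called in 0%, 0% and 4% of changed genes for Pol II, H3K4me3 and H3K9Ac. Changes of 2 were called in 48%, 0% and 95.5%. The largest change of a member was 1.39 in size, for H3K4me3, so limma could hardly call changes such as those of the members. The values below are given as descriptions.

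H3K4me3 held the largest shifts among the members. At SIN3B its best promoter summit ranked 21.8% and 20.9% in parental and 5.62% and 1.48% in SAP30-KO1 cells, and the lines did not overlap. The change in score was 1.39 ± 0.283 (SE, limma, adjusted p = 0.594). The opposite held at SAP30L, with 1.93% and 4.16% in parental and 14.5% and 29.2% in SAP30-KO1 cells, a change in score of -1.36 ± 0.36 (SE, limma, adjusted p = 0.594). At HDAC2 the ranks were 4.78% and 2.18% in parental and 15.3% and 18.1% in SAP30-KO1 cells, a change of -1.04 ± 0.259 (SE, limma, adjusted p = 0.594). At SIN3A they were 2.12% and 3.53% against 7.67% and 18.2%, and at the SAP30 gene 11.3% and 22% against 23.8% and 30.3%. HDAC1 and ING2 also ranked further down in both SAP30-KO1 libraries, HDAC1 by 6 and ING2 by 3.16 percentage points on average. In all, 6 members had both SAP30-KO1 ranks further down than both parental ranks, against 28.1% of genes, and 1 member, SIN3B, had both nearer the top, against 11.5%. The median shift of the members was 4.58 percentage points down the list, and that of all 12531 genes 2.09. SUDS3, SAP130 and ARID4B overlapped between lines. Ranked among the tested genes alone, the members' median shift was 8.54 and 4 members stood further down, as HDAC1 and ING2 then overlapped between lines.

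**Figure D3:**
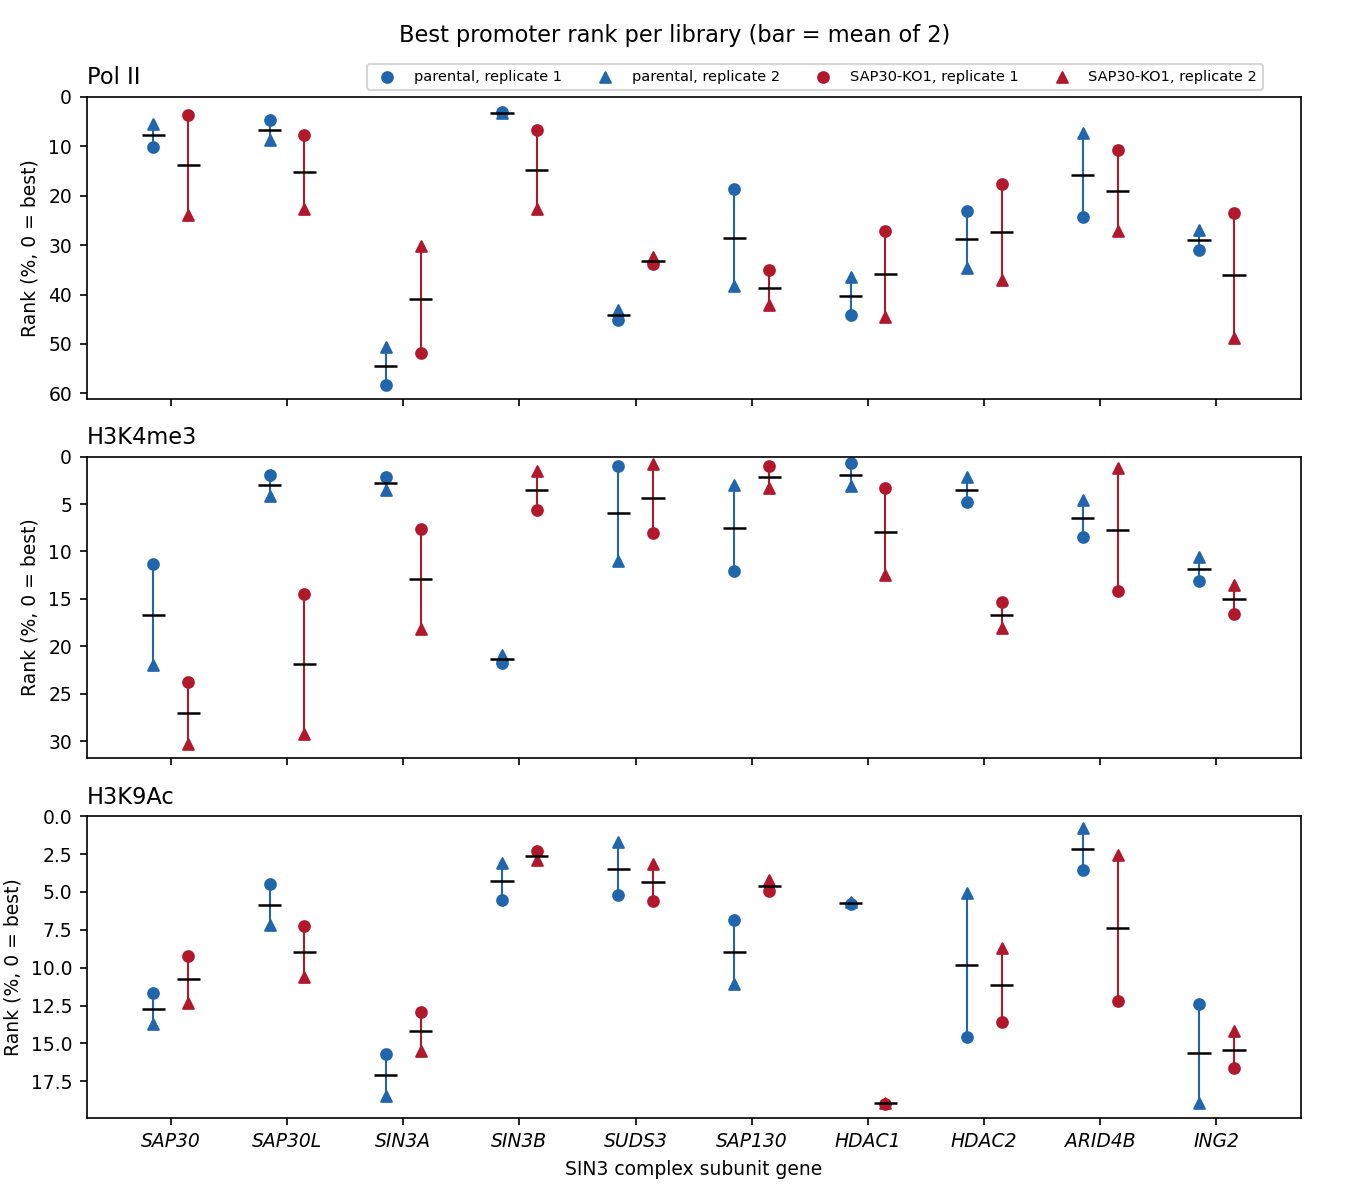
Rank in percent of the best promoter summit (y axis, inverted so that better ranks are higher; scales differ between panels) for each subunit gene in the 2 parental (blue) and 2 SAP30-KO1 (red) libraries, with Pol II at the top, H3K4me3 in the middle and H3K9Ac at the bottom; black bars are means of 2. H3K4me3 of SIN3B moved from 21.8% and 20.9% to 5.62% and 1.48%, and H3K9Ac of HDAC1 from 5.78% and 5.66% to 19% and 18.9%.

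H3K9Ac, the mark that deacetylases remove, shifted most at HDAC1. Its best promoter summit there ranked 5.78% and 5.66% in parental and 19% and 18.9% in SAP30-KO1 cells, further down in both libraries by far more than the replicates differed. The change in score was -1.2 ± 0.305 (SE, limma, adjusted p = 0.316), and HDAC1 had the lowest H3K9Ac p of the members. The intron 3 site showed no such separation, and the best H3K9Ac ranks within 1000 bp of the SAP30 summits were 26.8% and 21.8% in parental and 17.9% and 37% in SAP30-KO1 cells. SAP30L also ranked further down, from 4.47% and 7.2% to 7.26% and 10.6%. SIN3A, SIN3B and SAP130 stood nearer the top in both SAP30-KO1 libraries, SAP130 at 6.85% and 11.1% in parental and 4.95% and 4.23% in SAP30-KO1 cells. That made 2 members further down and 3 nearer the top, against 22.1% and 16.4% of genes. The members' median shift of 0.328 percentage points was close to the 0.309 of all genes, and it turned to -0.889 without parental replicate 2 and -0.772 without SAP30-KO1 replicate 1. The number of members without overlap, 5, became 10 without parental replicate 1 and 8 without SAP30-KO1 replicate 2, since a line left with 1 library overlaps less easily. The shares of all genes were not counted in these settings.

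Pol II ranks separated the lines at SIN3B and SUDS3 alone. SIN3B ranked 3.06% and 3.28% in parental and 6.75% and 22.7% in SAP30-KO1 cells (change in score -0.93 ± 0.421, SE, limma, adjusted p = 0.57), so its Pol II and H3K4me3 ranks moved in opposite directions. SUDS3 ranked 45.2% and 43.2% in parental and 33.9% and 32.4% in SAP30-KO1 cells. One member further down and 1 nearer the top stand against 24.2% and 15.4% of genes. The SAP30 gene ranked 10.2% and 5.4% in parental and 3.75% and 23.9% in SAP30-KO1 cells, so 1 SAP30-KO1 library stood above both parental libraries and the other below. The SAP30-KO1 Pol II libraries differed more from each other (Spearman rho 0.704 across 10825 genes) than the parental ones did (0.865 across 11595 genes). The members' median shift was 4.57 percentage points, against 1.48 for all genes, but it was 12.5 without SAP30-KO1 replicate 1 and -4.58 without SAP30-KO1 replicate 2. Likewise the 2 members without overlap became 10, 6 and 5 without SAP30-KO1 replicate 1, SAP30-KO1 replicate 2 and parental replicate 2. A line left with 1 library overlaps less easily at any gene, and the shares of all genes were not counted in these settings. No direction for Pol II over the list can be read from these libraries.

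The number of Pol II summits at the members was higher in SAP30-KO1 cells. Within the gene spans and promoters it was 22 and 20 in parental and 32 and 30 in SAP30-KO1 libraries, 1.48 times as many (two-sided exact permutation test, p = 0.33, the smallest that 2 against 2 libraries can give). Counting summits within 1000 bp of start sites gave a mean per member of 1.5 and 1.3 in parental and 2.2 and 2.1 in SAP30-KO1 libraries, a ratio of 1.54. Over all 10706 genes the means were 1.33 and 1.3 in parental and 1.6 and 1.66 in SAP30-KO1 libraries, a ratio of 1.24, so the genes at large also had more summits in SAP30-KO1 libraries. SAP30, SIN3A, SAP130 and HDAC2 had more promoter summits in both SAP30-KO1 libraries than in either parental one, 4 of 10 against 14.9% of genes. At the SAP30 gene there were 2 and 1 in parental and 4 and 4 in SAP30-KO1 cells. Both lines kept a summit in exon 1, 47 and 43 bp after the start site in parental and 55 and 44 bp in SAP30-KO1 libraries. The additional SAP30-KO1 summits lay upstream, on the SAP30-DT side, at 304, 692 and 896 bp in replicate 1 and 328, 725 and 983 bp in replicate 2, with ranks between 37.1% and 63.9%. These positions are also inside the annotated SAP30 span, which begins upstream of the principal start site, so they cannot be assigned to 1 gene. Parental replicate 1 had 1 such summit, 419 bp upstream, at 61.7%. When summits were joined into regions the ratio was 0.962, so the number of occupied regions did not rise with the number of summits.

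**Figure D4:**
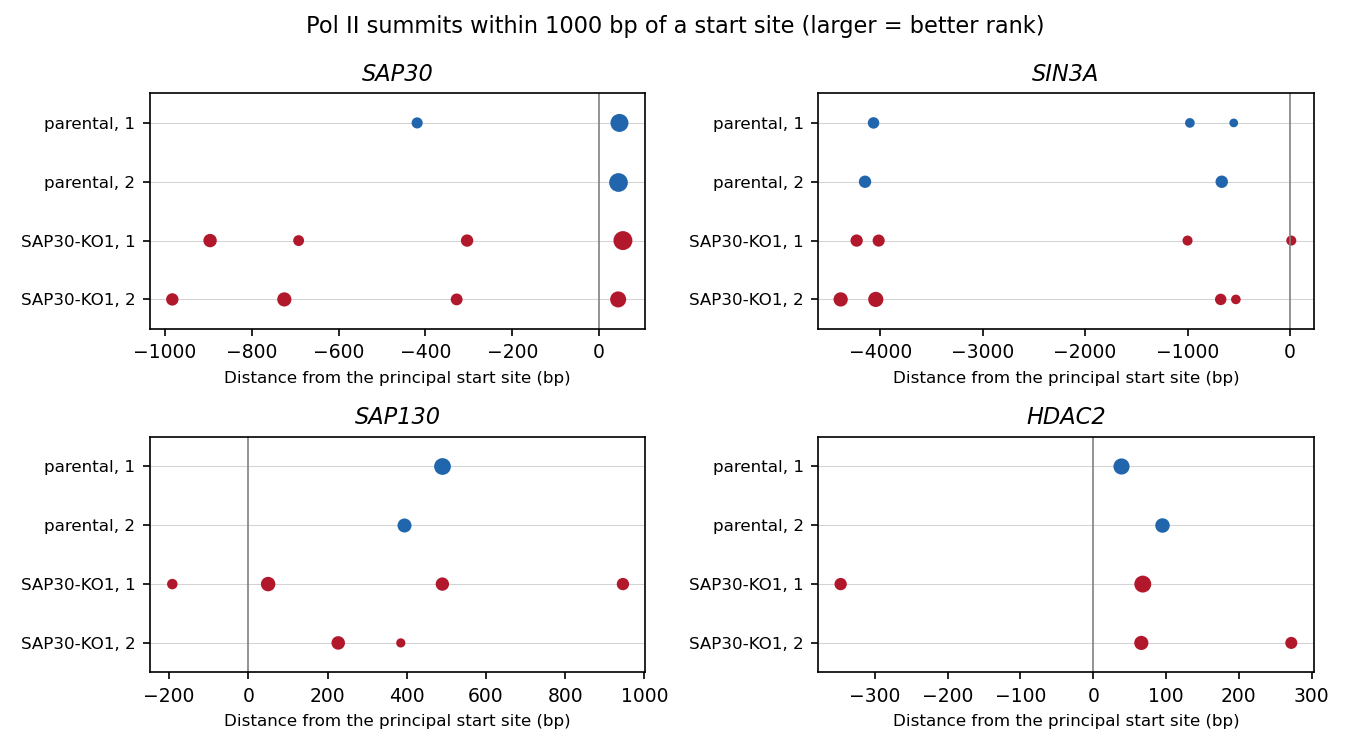
Pol II summits within 1000 bp of a start site at the 4 genes with more summits in both SAP30-KO1 libraries, by distance from the principal start site (x axis, bp, scales differ) in each library (rows; blue parental, red SAP30-KO1; larger points rank better). The SAP30 gene has 2 and 1 summits in parental and 4 in each SAP30-KO1 library, the others upstream of the start site.

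H3K9Ac summits at the members numbered 33 and 32 in parental and 29 and 26 in SAP30-KO1 libraries (ratio 0.846, p = 0.33 in a two-sided exact permutation test). H3K4me3 summits numbered 18 and 16 in parental and 15 and 18 in SAP30-KO1 libraries (ratio 0.971, p = 1 in the same exact test).

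Few regions were present in both libraries of one line and in neither of the other. At the members, 13 Pol II, 15 H3K4me3 and 22 H3K9Ac regions were held by both libraries of a line. Of these, 1, 1 and 1 were listed in parental cells alone, and 0 in SAP30-KO1 cells alone. Of all such regions, 9.11%, 7.13% and 7.95% were in 1 line alone, in either direction. Those in parental cells alone numbered 1267, 1131 and 1551, and those in SAP30-KO1 cells alone 108, 210 and 1102. Parental-only regions were thus the more common kind at large too. The parental-only Pol II and H3K4me3 regions of the members lay side by side upstream of the principal HDAC2 start site, inside the annotated HDAC2 span. SAP30 peaked there 24779 and 24773 bp upstream, at 70.7% and 48.3%, 31 bp from a start site of the noncoding gene HDAC2-AS2, with no SIN3A or SIN3B summit within 1000 bp. Pol II had summits 24590 and 24854 bp upstream in parental cells, at 72.1% and 68.1%, and in SAP30-KO1 cells the nearest ones were 24243 and 24656 bp from that region. H3K4me3 had summits between 25295 and 26368 bp upstream in both parental libraries, with best ranks of 88.7% and 79.3%, and the nearest SAP30-KO1 summits were 20186 and 20193 bp away. H3K9Ac stayed listed at this site in all 4 libraries, at 58.5% and 57.7% in parental and 62.7% and 52.3% in SAP30-KO1 cells. The parental-only summits stood in the lower part of their lists, and none of the 3 regions remained when the line that holds a region had to rank it within its better 50%. The 201 bases around the SAP30 summits (chr6:114316988-114317188, GRCh37, reverse strand) had a GC content of 57.7% and none of the 8 motifs, so no letter is in capitals.
HDAC2 upstream site: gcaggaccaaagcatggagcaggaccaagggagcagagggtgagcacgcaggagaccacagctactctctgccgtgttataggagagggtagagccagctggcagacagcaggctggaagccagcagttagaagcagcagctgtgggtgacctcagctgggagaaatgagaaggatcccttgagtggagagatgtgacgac

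**Figure D5:**
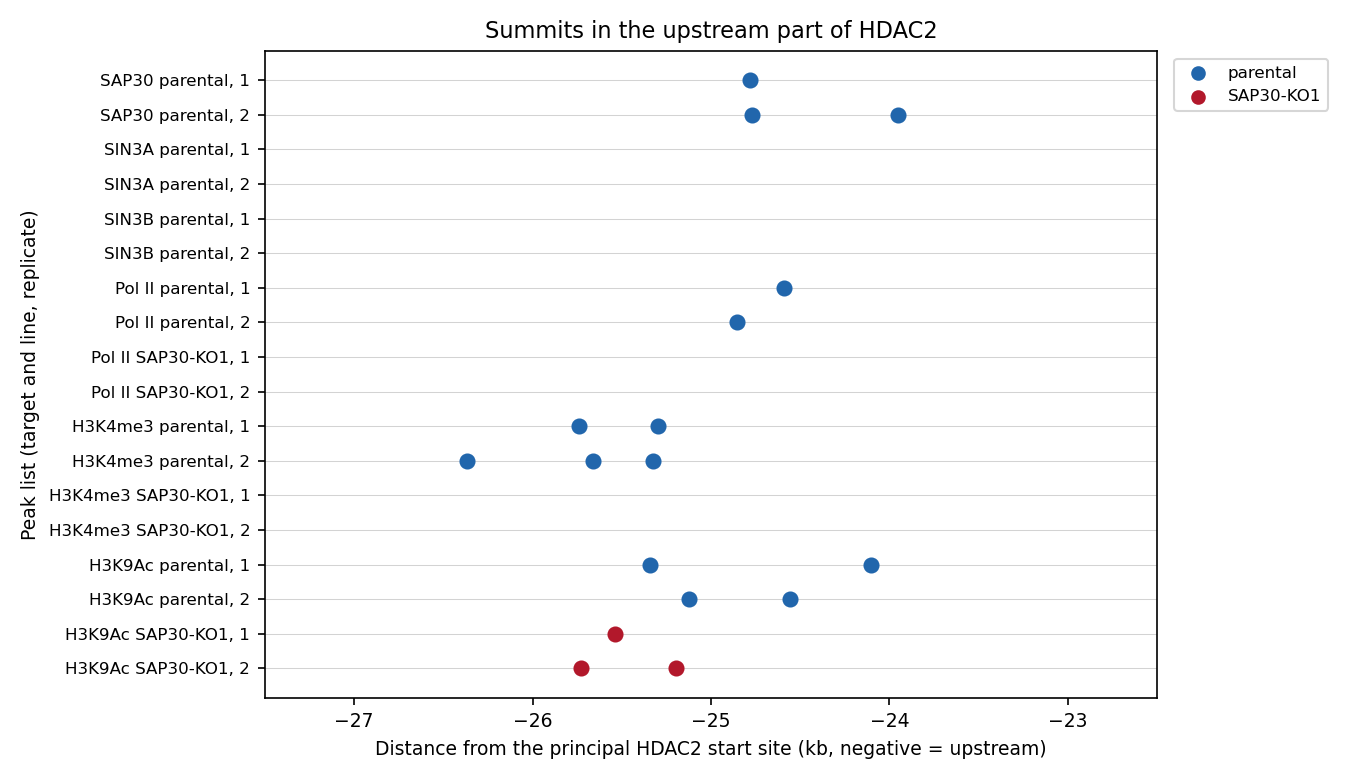
Summits in each of the 18 peak lists (rows; blue parental, red SAP30-KO1) by distance upstream of the principal HDAC2 start site (x axis, kb). Pol II and H3K4me3 summits appear in parental lists alone, and H3K9Ac summits in both lines.

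The H3K9Ac region lay in intron 2 of ARID4B, 2546 to 3435 bp after the start site, at best ranks of 55.7% and 62% in parental cells. The nearest SAP30-KO1 summits were 1923 and 1848 bp away, and joining summits within 2000 bp removed this region from the count. At the promoter itself ARID4B ranked 3.58% and 0.785% in parental and 12.2% and 2.56% in SAP30-KO1 cells.

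The other subunits of SIN3 complexes (16 genes) and of other HDAC1/2 complexes such as NuRD and CoREST (20 genes) were counted in the same way. SAP30 lay in both libraries at 15 of 16 and 19 of 20 promoters, against 61.2% of all genes. SIN3A protein lay at 9 of 16 and 7 of 20, against 31.5%, and SIN3B protein at 12 of 16 and 15 of 20, against 51.7%. Pol II lay in all 4 libraries at 14 of 16 and 18 of 20. Among all genes with Pol II in all 4 libraries the shares were 98% for SAP30, 56.7% for SIN3A and 90.7% for SIN3B. Read against these active genes, no share of either list was higher than the background. limma called 0 genes of the 2 lists for any mark at an adjusted p under 0.05. At an unadjusted limma p under 0.05, 2 of 14 tested genes of the first list passed for Pol II, 1 of 15 for H3K4me3 and 2 of 14 for H3K9Ac, and 3 of 18, 0 of 20 and 2 of 20 of the second. BRMS1, a subunit of the SIN3 complex known as a metastasis suppressor, ranked further down in SAP30-KO1 cells for all 3 marks without overlap. Its Pol II ranks were 22.6% and 21.3% in parental and 39.9% and 51% in SAP30-KO1 cells, its H3K4me3 ranks 13.6% and 7.45% against 23.1% and 17.1%, and its H3K9Ac ranks 9.2% and 8.27% against 16.4% and 15.9% (limma, adjusted p = 0.541, 0.707 and 0.595). PHF12, which holds a PHD finger, had the largest Pol II shift of its list, from 19.3% and 31.6% to 39.9% and 78.8%. FOXK1, a forkhead factor that recruits SIN3A, had H3K9Ac promoter summits at 2.07% and 5.74% in parental cells and none in SAP30-KO1 cells. It was the 1 gene of both lists with a promoter peak in both libraries of one line and in neither of the other. The share of such genes over all genes was not counted. FOXK1 kept Pol II (39.9% and 58.5%) and H3K4me3 (12.7% and 23.6%) promoter summits in SAP30-KO1 cells. Whether its H3K9Ac summits lay just beyond the 1000 bp window there was not tested. In the second list MIER2 had the largest Pol II shift, from 27.2% and 33.3% to 29.7% and 83.3%, which rests on SAP30-KO1 replicate 2. RCOR2, a CoREST subunit, had the largest shifts of H3K4me3, from 50.9% and 51.4% to 68.8% and 61.9%, and of H3K9Ac, from 29.1% and 30.9% to 66.1% and 43%.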

How the data were processed

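Peak lists from MDA-MB-231 ChIP-Seq were assigned to groups by antibody target and line as labelled. Per the labels, the authors used FastQC 0.11.2, Bowtie2 2.3.3.1 on hg19, Picard and MACS2 2.1.0. The deposited files list 1-bp MACS2 summits, called per library, with a score that was taken as the −log10 q-value of the peak because its lowest values lay near 1.3. The control behind each list is not given in the sources used here. These scores depend on depth and control, so they were ranked within each list and no amounts were compared between lines. Start sites were those of basic transcripts in GENCODE 44 lifted to GRCh37. Summits within 1000 bp were joined into regions. The best promoter ranks of genes with a summit in all 4 libraries of a mark (all 10 members passed) were converted to normal scores and compared with limma 3.58.1, Benjamini-Hochberg adjusted over all genes, after testing on simulated data. Exact permutation tests compared summed counts. The members and lists were chosen with earlier results of these data known. Named genes were the members, their protein-coding neighbours within 1000 bp, called or one-line genes and the largest shift per mark in 2 further lists, and the 3 genes nearest to SAP30 in rank. TAOK3, RBM34 and F2RL3 were named as nearest start sites after the values were seen. Sequences are from the GRCh37 assembly. Alternatives were other windows, scores, transcripts and joining distances, the better 50% of each list, a replicate block and leaving out libraries. One gene of the marker lists is not reported here.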

Additional observations from a re-analysis of the deposited data

How the results depend on the processing

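The number of members called by limma was 0 under every setting, which with 2 libraries per line says nothing about stability. Counting SIN3A in the better 50% of its lists left 4 of 10 members, and the share of all genes was not counted. The ratio of summit counts reversed when regions were counted for Pol II (0.962) and for H3K4me3 (1.07); leaving out libraries gave 0.882 to 1.06 for H3K4me3, including 1.03. Separated Pol II ranks rose from 2 to 4 when ranked among the genes tested, and were 3 to 10 with a library left out. Those of H3K9Ac were 5 to 10 with a library left out. The shares of all genes were not counted in these settings. The median shift was 8.54 for H3K4me3 when ranked among the genes tested, which is another scale. For H3K9Ac it was 2.2 (500 bp window) and 1.11 (principal transcript). With a library left out it was -4.58 to 12.5 for Pol II, 4.58 to 6.12 for H3K4me3 and -0.889 to 1.18 for H3K9Ac. Regions in 1 line alone numbered 0 for each mark in the better 50%, 0 for H3K9Ac joined over 2000 bp, and, with a library left out, 1 to 2 for Pol II, 1 to 3 for H3K4me3 and 2 to 4 for H3K9Ac. The cause was not tested. Replicate numbers did not pair the libraries (correlation of deviations 0.016, -0.016 and 0.0041). A replicate block called 0 members for any mark, the lowest adjusted limma p being 0.0944 for HDAC1 H3K9Ac. Over all genes, the block called 43 for H3K9Ac, against 1 in the main fit. The score-based fit called 142 genes for H3K4me3 and no member. Unknown depth and 2 libraries per group limit every comparison.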

Other observations

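The 3 protein-coding genes whose best promoter ranks over the 18 lists lay closest to those of SAP30 were PTTG1, FAM120B and OIP5, with mean absolute rank differences of 5.15, 5.21 and 5.36 percentage points (a list without a summit was set to 100%). PTTG1 encodes securin and OIP5 a factor of centromere assembly. SAP30L was 254th in this order, at 8.28 percentage points, and the other members lay between 14.6 for SIN3B and 23.6 for SAP130. The 18 lists share cells and antibodies, so this is a description.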
